A study of Danio rerio with 6 samples.

Results

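Arginases, inducible nitric oxide synthases and ornithine decarboxylase share the amino acid arginine or its product ornithine, and 5 of their genes were followed here: arg1, arg2, nos2a, nos2b and odc1. They were taken by name from the 32520 Ensembl genes of the deposited count tables, and each name stood on a single row. The RNA was from fluorescent cells enriched at 48 hours post-fertilisation from the Tg(mpx:eGFP) line, in which the promoter of the neutrophil myeloperoxidase gene mpx drives the green fluorescent protein. There were 3 libraries treated with a znf711 morpholino (labelled znf711 knockdown) and 3 control libraries (labelled WT), all carrying the reporter. A morpholino is an antisense oligonucleotide that blocks translation or splicing of its target. The series' design text names znf711-/- larvae instead, and the grouping followed the sample labels. The treatment of the control larvae and the number of larvae per library are facts that the labels do not state.

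Arginase cleaves arginine into ornithine and urea. Nitric oxide synthase oxidises the same arginine to nitric oxide and citrulline, so the enzymes compete for a substrate. Ornithine decarboxylase turns ornithine into putrescine, the first polyamine. In mammals Arg1 is the cytosolic arginase of the hepatic urea cycle and is also made by myeloid cells, Arg2 is the mitochondrial form, and Nos2 is induced in phagocytes by microbial products and cytokines. Arginase and Nos2 are widely used as opposing markers of phagocyte activation.

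Total counts were 1629804 to 12093109 in the morpholino group and 7181804 to 9311439 in controls. The lowest total was that of morpholino replicate 1, where 8041 Ensembl genes had a count, whereas 13434 to 16074 did in each of the others. The targeted gene znf711 had 1, 120 and 182 counts in morpholino replicates 1 to 3 and 348, 134 and 60 in control replicates 1 to 3. A morpholino acts on translation or splicing, and its effect on the transcript counts of znf711 was not tested. These counts are therefore not used as a check of the labels. Levels below are counts scaled by TMM to a common library total (CPM), and they serve to compare libraries. Levels of different genes are compared only in FPKM, which is scaled to gene length. The level of mpx was 549, 2683 and 4979 CPM in the morpholino libraries and 511, 2875 and 2655 CPM in controls. Replicate 1 of either group was therefore low in the reporter's own gene. The 9 rows of the neutrophil marker list summed to 2549, 11217 and 19093 CPM in the morpholino group and 1887, 12067 and 13729 CPM in controls. None of these rows was at 0 throughout, although lyz had no more than 8 counts in any library.

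Of the 5 genes, odc1 was abundant, arg2 moderate, nos2b barely detected, and arg1 and nos2a not detected. None of them was called different between the groups. Only arg2 and odc1 had enough counts for edgeR's quasi-likelihood test, and 0 of these 2 had an adjusted p below 0.05, beside 0% of all 16637 rows tested. None of the 2 had an unadjusted p below 0.05, beside 1.05% of all rows, and DESeq2 and limma-voom also called 0 of them. DESeq2 called 12 of the 16637 rows, or 0.0721%, and limma-voom none of them. Libraries of a group differed widely, with a common biological coefficient of variation of 1.09, which limits what 3 libraries per group can show. The labels call the replicates biological without saying whether they came from separate clutches. The p-values set the difference between the groups against the spread between these libraries.

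The cytosolic arginase gene arg1 (ENSDARG00000057429, GRCz11 chromosome 12, 9597151 to 9617770, minus strand) had 0 counts in all 6 libraries. The upper limit set by a count of 0 is 3 counts, or 0.276 to 1.58 CPM in the morpholino libraries and 0.348 to 0.481 CPM in the controls. Over the 6 libraries together the limit is 0.0647 CPM, and such limits cover counting error only. Whether reads of arg1 went to another row was looked at by position. The tables list 4 rows on alternate scaffolds of chromosome 12 at positions within 50 kb of arg1. These rows together had 0 counts in each morpholino library, against 0, 1 and 1 in the controls. For the other 4 genes there was no such row. The liver marker fabp10a was also at 0 in every library, but the rest of the liver list had counts. Its row tfa had 9, 162 and 90 counts in the morpholino libraries and 13, 51 and 104 in the controls. The rows fgb, apoa2 and cp had counts in some libraries. Also at 0 in every library were amd1 and dohh, enzymes of polyamine and hypusine synthesis that most cells are thought to use. A row at 0 is therefore given here as not counted, not as an absent transcript.

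The mitochondrial arginase gene arg2 (ENSDARG00000039269, chromosome 13, 33024547 to 33034374, plus strand) was the arginase gene with counts. It had 0, 376 and 1150 counts in morpholino replicates 1 to 3, against 246, 233 and 228 in control replicates 1 to 3. The corresponding levels were 0, 34.6 and 110 CPM in the morpholino group and 28.6, 28.1 and 36.5 CPM in controls. The controls lay close together, whereas the morpholino libraries held both the lowest and the highest value of the 6. The coefficient of variation was 117% among morpholino libraries and 15.2% among controls. The mean was 48.1 ± 56.1 CPM in the morpholino group and 31.1 ± 4.74 CPM in controls (SD, n = 3 each). The log2 fold change was 0.64 ± 1.25 (standard error), with a 95% interval of -2.12 to 3.39 and an edgeR adjusted p of 0.9999. The groups overlapped.

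**Figure D1:**
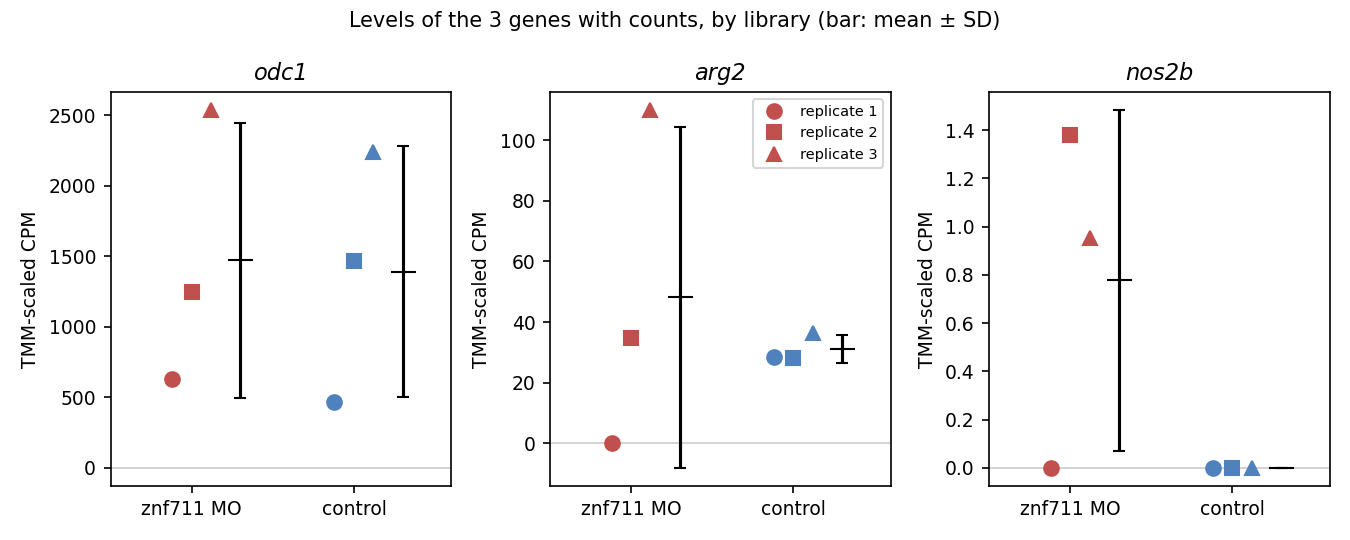
Levels of odc1, arg2 and nos2b in TMM-scaled CPM (vertical axes start near 0 and differ between panels), with morpholino libraries left and controls right. Symbols are libraries by replicate number and bars are the mean and SD of 3; the 3 controls of arg2 lie between 28.1 and 36.5 CPM, inside the morpholino range of 0 to 110 CPM.

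The direction of arg2 rested on single libraries. Without morpholino replicate 3 its log2 fold change was -0.81, and without morpholino replicate 1 it was 1.2, with an unadjusted p of 0.0486 and an adjusted p of 0.9998. The mean of log2(CPM + 1), which weights the library at 0 more, was lower in the morpholino group by 1.01 (a difference of -1.01), opposite in sign to the fitted value. At the mean control level, 59 reads of arg2 would have been counted in morpholino replicate 1, where there were 0. That library lacked other genes of like CPM too. Of 2706 tested Ensembl genes with a mean of 20 to 50 CPM in controls, 549 or 20.3% had 0 counts in morpholino replicate 1. In morpholino replicates 2 and 3 it was 0%, and in the controls 0.037% to 0.148%. The genes were chosen by their control level, so the low share in the controls follows in part from that choice. In morpholino replicate 3, the 95% counting interval of arg2 was 103 to 116 CPM, so counting error is small beside its distance from the other libraries.

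The summed macrophage markers stood in the same order as arg2 within the morpholino group, and so did the summed neutrophil markers. Single macrophage rows went both ways from morpholino replicate 2 to 3. There mpeg1.1 went from 29.4 to 15.7 CPM and mfap4 from 453 to 293 CPM. In contrast, mpeg1.2 went from 62.3 to 577 CPM and marco from 218 to 281 CPM. The macrophage list, of 15 rows with 1 at 0 throughout, summed to 447, 1910 and 2811 CPM in the 3 morpholino libraries, against 484, 970 and 2231 CPM in controls. While this sum rose over the controls, arg2 was at 28.6, 28.1 and 36.5 CPM there. The largest row, named MFAP4, was at 313, 1024 and 1448 CPM in the morpholino libraries and 296, 356 and 1320 CPM in controls. In morpholino replicate 1, mpeg1.2 and csf1ra were at 0 CPM and mpeg1.1 at 1.05 CPM, against 18.7, 56.5 and 6.04 CPM in control replicate 1. Not every macrophage row was lower there: marco was at 46.9 CPM in morpholino replicate 1 and 18.9 CPM in control replicate 1, and mfap4 at 78 CPM and 72.7 CPM in the same libraries. Per 100 reads of mpx, arg2 had 0, 1.29 and 2.2 reads in the morpholino libraries and 5.59, 0.979 and 1.38 reads in the controls. Control replicate 1, low in mpx, thus had the most arg2 per mpx read, while morpholino replicate 1, equally low in mpx, had none. The part of neutrophil and macrophage content in the arg2 values was not tested. In RNA of sorted cells taken in bulk, fewer expressing cells and less RNA per cell cannot be told apart.

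An unnamed gene model of 530 bases lay 2657 bases downstream of the annotated end of arg2 (chromosome 13, 33037031 to 33037560). It had 0, 11 and 47 counts in morpholino replicates 1 to 3 and 0, 0 and 1 in the controls. Its libraries therefore stood in the same order as for arg2 within the morpholino group. A second model, of 202 bases, had 6 counts in morpholino replicate 3 and 0 in the other 5 libraries. The files give no strand for either model and do not assign them to arg2.

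The inducible nitric oxide synthase gene nos2a (ENSDARG00000026925, chromosome 5, 43782267 to 43796971, plus strand) had 0 counts in all 6 libraries, with the same limits as for arg1. Its listed length was 8164 bases. The second copy, nos2b (ENSDARG00000031976, chromosome 15, 30323491 to 30348677, plus strand), had 0, 15 and 10 counts in morpholino replicates 1 to 3 and 0 in each control. This came to 0, 1.38 and 0.953 CPM in the morpholino group and 0 CPM in each control. The 95% counting intervals were 0.773 to 2.28 CPM in morpholino replicate 2 and 0.457 to 1.75 CPM in replicate 3. In the controls, at 0 counts, the upper ends of the 95% counting intervals were 0.428 to 0.591 CPM. They all lay below the interval of morpholino replicate 2. Only that of control replicate 3, at 0.591 CPM, reached into the interval of morpholino replicate 3.

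Summed over each group, nos2b had 25 counts in the morpholino libraries and 0 in controls. Taken against the limit of 3 counts over the control group, the level from these 25 counts was 8.29-fold higher. Only the counting error of the controls enters this ratio. The 25 counts are taken as they stand, and the spread between libraries is left out. Across libraries, the mean of log2(CPM + 1) was higher by 0.74 in the morpholino group, with a two-sided exact permutation p of 0.4. With 3 against 3 libraries that test cannot go below 0.1, and with counts in only 2 libraries it cannot go below 0.4. It could therefore not have passed for nos2b, and no conclusion is drawn from it. Positive counts were found in 2 of 3 morpholino libraries, and the groups share the value 0. In the morpholino group that 0 is from replicate 1, where the limit of 3 counts is 1.58 CPM. This limit lies above the 1.38 and 0.953 CPM of morpholino replicates 2 and 3. A level like theirs could therefore have given 0 counts in replicate 1, and its 0 does not show a lower level. Morpholino replicates 2 and 3 had the largest total counts of the 6, at 12093109 and 9550796, against at most 9311439 in the controls. The part of depth in this difference was not tested. How many of all rows had counts in the morpholino group alone was not taken. nos2b and nos2a are related copies, and the labels do not say how reads with several positions were counted. The neuronal gene nos1 was at 0 in all 6 libraries, and so was nostrin, a trafficking factor of nitric oxide synthase.

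The ornithine decarboxylase gene odc1 (ENSDARG00000007377, chromosome 17, 51743908 to 51760243, plus strand) had 1189, 13531 and 26625 counts in morpholino replicates 1 to 3. In control replicates 1 to 3 it had 4004, 12159 and 13979 counts. Its level was 627, 1246 and 2539 CPM in the morpholino libraries and 465, 1469 and 2241 CPM in controls. Each group spanned a similar range, with replicate 1 lowest and replicate 3 highest. The highest library exceeded the lowest 4.05-fold in the morpholino group and 4.82-fold among controls, both larger than the ratio of the group means. Those means were 1470 ± 975 CPM in the morpholino group and 1391 ± 891 CPM in controls (SD, n = 3 each). The log2 fold change was 0.08 ± 0.59, with a 95% interval of -1.18 to 1.34 and an edgeR adjusted p of 0.9999. The interval reaches a more than 2-fold change in either direction. It turned to -0.57 when morpholino replicate 3 was left out and to -0.34 when control replicate 1 was, and it came to 0.59 when control replicate 3 was.

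The libraries low in mpx were low in odc1 and the library highest in mpx was highest in odc1. Between these ends the order differed. Control replicate 2 was at 2875 CPM of mpx and 1469 CPM of odc1, and control replicate 3 at 2655 CPM and 2241 CPM. Per 100 reads of mpx, odc1 had 114, 46.4 and 51 reads in morpholino replicates 1 to 3 and 90.9, 51.1 and 84.4 reads in the controls. These ratios spanned a narrower range than the levels and also overlapped between the groups. Without replicate 1 of either group, an alternative chosen after the data were examined, the log2 fold change of odc1 was 0.03. The sum of the 8 erythroid marker rows ran opposite to odc1 within each group. It was 17108, 11981 and 2140 CPM in the morpholino libraries and 12935, 5448 and 3973 CPM in controls. The largest row was hbae3, at 14089, 7659 and 1445 CPM in the morpholino libraries and 10344, 3463 and 2871 CPM in controls. The rows hbae1.1, hbae3, hbbe2 and slc4a1a fell from replicate 1 to 3 in both groups. In contrast, hbbe1.1, hbbe3, gata1a and alas2 did not, and alas2 had 1 count in morpholino replicate 1 alone. The part of cell composition in the odc1 values was not tested.

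**Figure D2:**
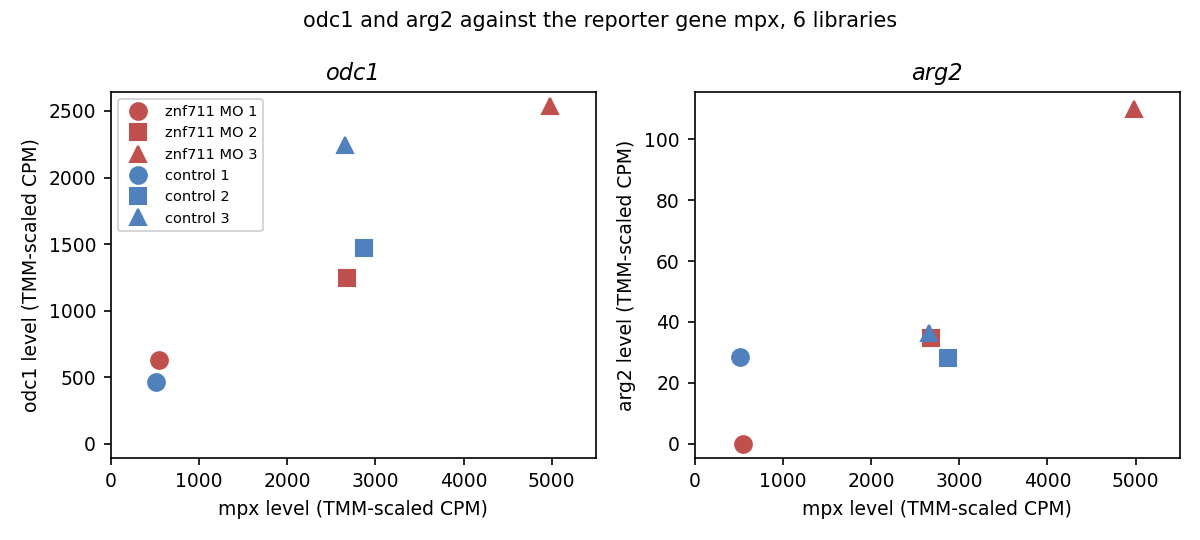
Levels of odc1 (left) and arg2 (right) against the level of mpx, all in TMM-scaled CPM on linear axes, with 1 symbol per library. For odc1, replicate 1 of either group sits at the low end of both axes and morpholino replicate 3, at 4979 CPM of mpx and 2539 CPM of odc1, at the high end; for arg2, the replicates 1 lie apart at 0 CPM (morpholino) and 28.6 CPM (control).

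Per unit of length, the order was odc1, arg2, nos2b, and then arg1 and nos2a at 0. The deposited FPKM of odc1 was 140, 215 and 537 in morpholino replicates 1 to 3 and 107, 251 and 352 in controls. That of arg2 was 0, 13.8 and 53.3 in the morpholino group and 15.2, 11.1 and 13.2 in controls. That of nos2b was 0.362 and 0.305 in morpholino replicates 2 and 3 and 0 elsewhere. The lowest odc1 value was above the highest arg2 value, so this step in the order held in all 6 libraries. Within single libraries with arg2 reads, the FPKM of odc1 was 10.1 to 15.6 times that of arg2 in the morpholino group and 7.07 to 26.6 times in controls. The step from arg2 to nos2b was 38.1-fold and 175-fold in morpholino replicates 2 and 3, and in morpholino replicate 1 both genes were at 0. For odc1 the deposited FPKM was 1.89 times the count divided by the listed length of 9820 bases and the table's total. Computed from the listed length, odc1 was at 74.3 to 284 reads per kilobase, per 1000000 reads, in the morpholino group and 56.8 to 186 in controls, above arg2 in each library.

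By deposited FPKM odc1 ranked 129th to 477th of the Ensembl genes with counts in the morpholino libraries and 191st to 500th in controls. This placed it within the top 0.848% to 5.93% of detected genes in the morpholino group and the top 1.42% to 3.41% in controls. These ranks of odc1 rest on the deposited FPKM, which was 1.89 times the value from its listed length. Ranks by listed length were not taken. Where arg2 was detected, its rank fell within the top 7.74% to 20.9% in the morpholino group and 23.7% to 25.9% in controls. These percentages depend on how many genes a library detected. By plain rank the groups overlapped, with arg2 3361st in morpholino replicate 2 and 3189th in control replicate 3. In contrast, nos2b lay in the lowest part of the detected genes, at 83.3% and 90.3% from the top in morpholino replicates 2 and 3.

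Across the 6 libraries, the named genes with the pattern most like arg2 were rasa3, osbpl3b and pi4k2a, with Pearson correlations of log2(CPM + 1) of 0.999, 0.998 and 0.998. These genes, a Ras GTPase-activating protein, an oxysterol-binding protein relative and a phosphatidylinositol kinase, were likewise lowest in morpholino replicate 1, at 0, 0 and 5.27 CPM. All 3 were highest in morpholino replicate 3, at 55.7, 45.6 and 139 CPM. Such likeness was common: 1507 of 12443 genes compared had a correlation above 0.9 with arg2, and the median over all was 0.497. For odc1 the nearest were nup210, a nuclear pore gene, lacc1 and CR847563.1, at 0.992, 0.990 and 0.988. For odc1 317 genes were above 0.9, and the median was 0.192. The correlation of arg2 with odc1 was 0.614. All these values describe 6 libraries that differ in depth and cell content, and no p is given for them.

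The genes around these 5 were taken from 9 lists of arginine, polyamine and nitric oxide metabolism. Of 72 entries 5 had no row in the tables, and the others came to 69 rows, of which 40 had enough counts to be tested and 11 were at 0 throughout. In edgeR 0 of the 40 were called, 0 had an unadjusted p below 0.05, and DESeq2 and limma-voom called 0. Their median log2 fold change was -0.15, with 15 positive and 25 negative, against a median of -0.12 over all rows tested. Of all rows tested 7365 were positive and 9272 negative. With library totals alone as scaling 20 of the 40 were positive and 20 negative, and without morpholino replicate 1 it was 21 and 19. The split moved the other way with the replicate block, to 11 and 29. Without morpholino replicate 3 it was 8 and 30 of the 38 rows that were kept. The groups did not overlap in 1 gene that was higher and 1 that was lower in the morpholino group, beside 2.09% and 5.35% of all rows. The gene above the controls was pycr1b, a proline synthesis reductase, at 32.2, 35.8 and 24.2 CPM in the morpholino group and 20.5, 15.9 and 10.3 CPM in controls. The gene below was spra, a sepiapterin reductase, at 6.33, 4.51 and 2.67 CPM in the morpholino group, against 10.7, 6.4 and 7.05 CPM in controls. The name of spra was chosen after its values were seen.

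**Figure D3:**
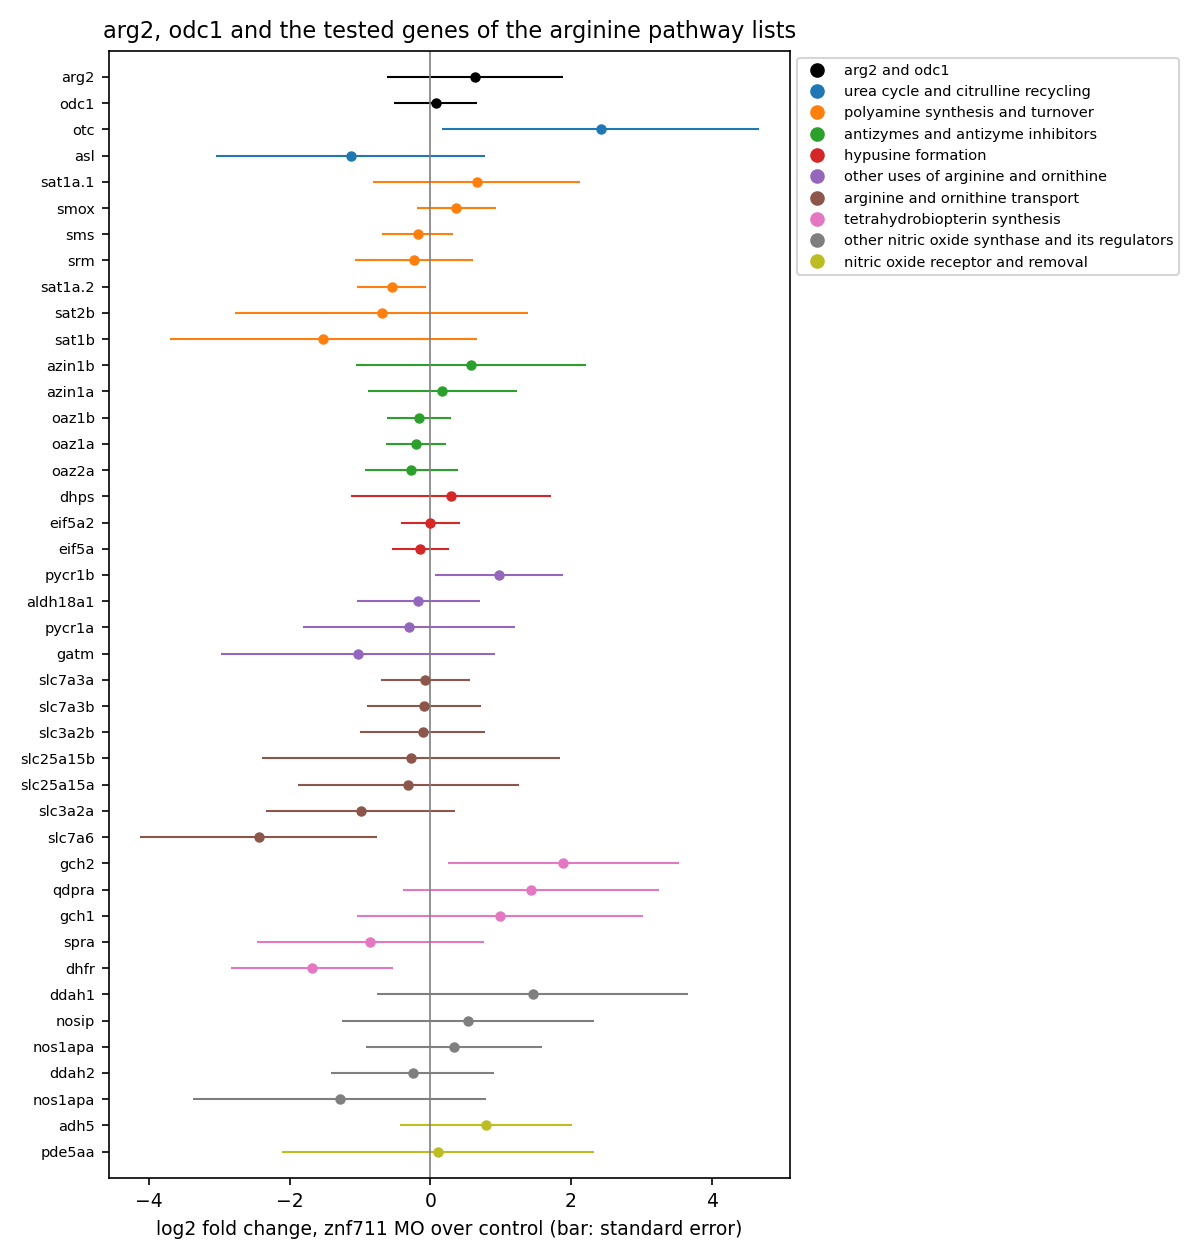
Fitted log2 fold changes of arg2, odc1 and the 40 tested rows of the pathway lists, morpholino over control, with standard errors as bars and colours for the lists. The values run from -2.44 to 2.42, their median is -0.15, and the widest bars belong to rows of few counts.

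Downstream of odc1, spermidine and spermine are made, acetylated and oxidised. Of 7 tested genes of polyamine synthesis and turnover 2 were positive and 5 negative, with a median log2 fold change of -0.23. Without control replicate 3 it was 4 positive and 3 negative. With the replicate block, and also without morpholino replicate 3, it was 1 positive and 6 negative. Spermine synthase, sms, which had the largest mean share of reads in this list, was at 435, 822 and 880 CPM in the morpholino group and 311, 990 and 1113 CPM in controls. Its log2 fold change was -0.18 ± 0.50 (edgeR adjusted p = 0.9999), and with library totals alone as scaling it was 0.03. The acetyltransferase gene sat1a.2, whose product marks polyamines for export and breakdown, was at 317, 751 and 571 CPM in the morpholino group and 401, 719 and 1284 CPM in controls, a log2 fold change of -0.55 ± 0.49. It had the smallest unadjusted p of that list, 0.281. S-adenosylmethionine decarboxylase, amd1, which supplies the aminopropyl group for polyamines, was at 0 in every library.

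Antizymes bind ornithine decarboxylase and send it for degradation, and antizyme inhibitors release it. Of 5 tested rows 2 were positive and 3 negative, with a median of -0.16, and without morpholino replicate 1 it was 3 and 2. With the replicate block, and without morpholino replicate 2 or 3, it was 1 and 4. In the reported fit the 3 negative rows were antizymes. The 2 positive rows were the inhibitor genes azin1a (0.17 ± 1.06) and azin1b (0.58 ± 1.63), with standard errors larger than their values. The antizyme gene oaz1a was at 235, 364 and 236 CPM in the morpholino libraries and 275, 375 and 311 CPM in controls, a log2 fold change of -0.20 ± 0.43. Its highest library exceeded its lowest 1.6-fold, against 5.46-fold for odc1. The translation factor gene eif5a, whose product carries hypusine made from spermidine, was at 1027, 1082 and 825 CPM in the morpholino group and at 1102, 1250 and 876 CPM in controls. Its log2 fold change was -0.14 ± 0.41. Of the 3 tested rows of hypusine formation 1 was positive and 2 negative. This split turned to 2 and 1 with either of the other scalings and with DESeq2. It was also 2 and 1 without morpholino replicate 1, control replicate 1 or control replicate 2. With the replicate block, and without morpholino replicate 2 or 3, it was 0 and 3.

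Other lists held genes for further ends of arginine and ornithine. Of the urea cycle and citrulline recycling list, 2 rows were tested, 1 in each direction. Argininosuccinate lyase, asl, which regenerates arginine, was at 0, 5.62 and 2.19 CPM in the morpholino libraries and at 3.02, 8.33 and 6.25 CPM in controls (log2 fold change -1.13 ± 1.91). Ornithine transcarbamylase, otc, was at 0, 5.89 and 3.72 CPM in the morpholino group and at 1.04, 0.725 and 0 CPM in controls (2.42 ± 2.25). Of 4 tested rows for proline and creatine synthesis 1 was positive and 3 negative, with a median of -0.24. Among these aldh18a1, which makes the proline precursor from glutamate, was at 23.8 ± 3.97 CPM in the morpholino group and 26.9 ± 11.8 CPM in controls (SD, n = 3 each). The log2 fold change of pycr1b was 0.98 ± 0.91.

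All 7 tested genes of arginine and ornithine transport had negative fold changes, with a median of -0.27, and 0 were called. This split depended on the scaling and on single libraries: with library totals alone 3 of the 7 were positive, with limma-voom 2, and without morpholino replicate 1 it was 4. The amino acid transporter chain slc3a2b was at 8.96, 175 and 274 CPM in the morpholino group and 120, 239 and 137 CPM in controls, a log2 fold change of -0.11 ± 0.89. The exchanger gene slc7a6 was at 0, 2.21 and 6.01 CPM in the morpholino group and at 10.9, 5.8 and 29.5 CPM in controls, the lowest fold change of the 40 rows at -2.44 ± 1.68 (unadjusted p = 0.164, edgeR adjusted p = 0.9999). Both were lowest in morpholino replicate 1. The log2 fold change of slc3a2b was 0.43 without that library, 0.28 without control replicate 2 and 0.01 with library totals alone as scaling.

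Tetrahydrobiopterin is a cofactor that nitric oxide synthase requires. Of 5 tested rows for its synthesis 3 were positive and 2 negative, with a median of 0.99. With limma-voom, and also without morpholino replicate 1, it was 1 positive and 4 negative. The positive gch2, a GTP cyclohydrolase gene, was at 70.1, 11.3 and 0 CPM in the morpholino group and 1.51, 10.7 and 9.46 CPM in controls, and was named after its values were seen. Dihydrofolate reductase, dhfr, which also serves folate metabolism, was at 0, 22.1 and 14.9 CPM in the morpholino group and at 45.3, 19 and 55.9 CPM in controls. Its log2 fold change was -1.68 ± 1.15, with an unadjusted p of 0.162 and an edgeR adjusted p of 0.9999. The 5 tested rows of other nitric oxide synthase genes and regulators had a median of 0.34. Here ddah2, of the family that removes methylarginines, was at 2.11, 24.9 and 19.7 CPM in the morpholino group and at 23.1, 19.4 and 13.6 CPM in controls. Its relative ddah1 had 0 to 3.91 CPM in the morpholino group and 0 to 1.6 CPM in controls. The S-nitrosoglutathione reductase gene adh5 was at 92.3, 30.8 and 1.43 CPM in the morpholino group and at 38, 30.8 and 2.4 CPM in controls, a log2 fold change of 0.79 ± 1.22 that was -0.57 without morpholino replicate 1. Of the subunit genes of soluble guanylate cyclase, gucy1a1 was at 0 in all 6 libraries and gucy1a2 had no row. The subunit gene gucy1b1 had 6, 1 and 0 counts in morpholino replicates 1 to 3 and 8, 0 and 2 in control replicates 1 to 3, too few to be tested.

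**Figure D4:**
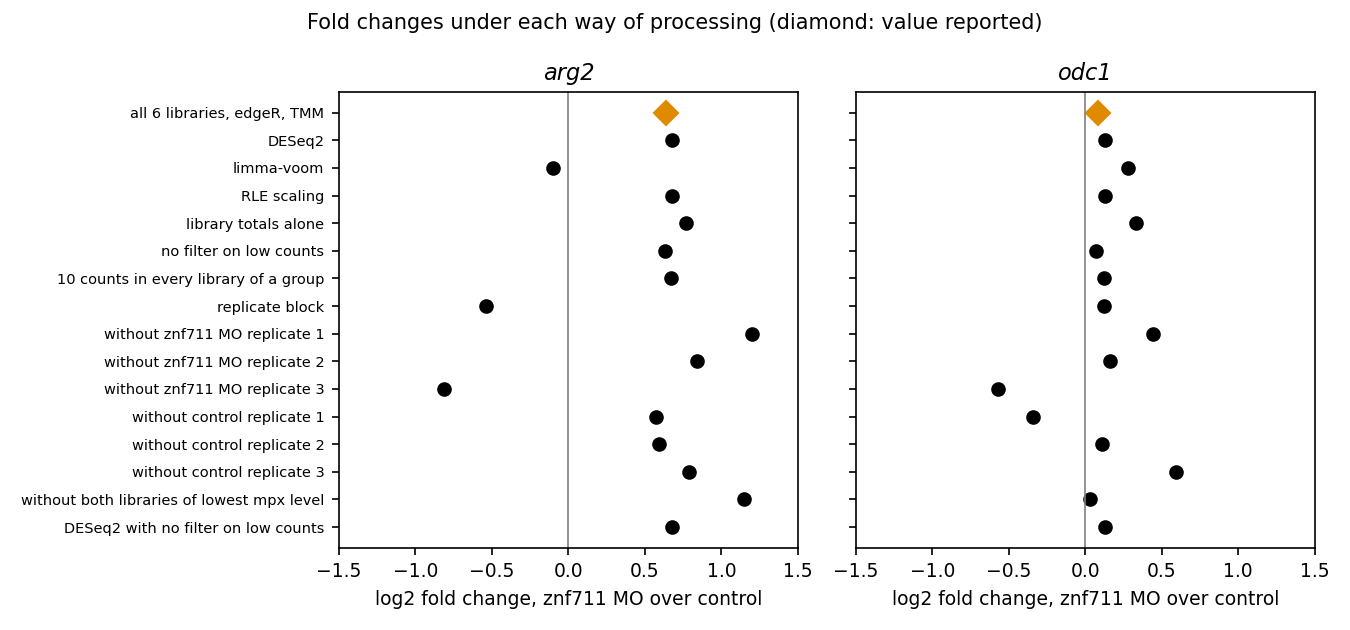
Log2 fold changes of arg2 (left) and odc1 (right), morpholino over control, for the reported fit (diamond) and each alternative (dots). For arg2 the points run from -0.81 without morpholino replicate 3 to 1.2 without morpholino replicate 1, and for odc1 from -0.57 to 0.59, on either side of 0.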

How the data were processed

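Polyadenylated RNA of 6 libraries, 3 per group as labelled, was sequenced. Each sample has its own table, deposited by the authors, of raw counts and FPKM values per gene, per the file headers, with 59330 rows of which 26810 are unnamed gene models. Trimmomatic, HISAT2 2.0.5, HTSeq, edgeR, DESeq2 1.16.1 and the build GRCz11 are listed in the submitters' processing notes without roles. Strand use and the handling of reads with several positions are not stated, so related or overlapping genes are uncertain.

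The test was that of edgeR 4.0.16 (R 4.3.3): filterByExpr with a minimum count of 10, TMM, robust quasi-likelihood fit with the group as the only term, and Benjamini-Hochberg adjustment over the 16637 rows in the fit, called below 0.05. Standard errors are the absolute log2 fold change over the square root of F, and 95% intervals use its degrees of freedom. nos2b was compared by an exact permutation test of log2(CPM + 1). Counting intervals are exact Poisson. Alternatives used DESeq2 1.42.0, limma 3.58.1 (voom), other scalings and filters, a replicate block and left-out libraries. The code was tested on simulated data. The 5 genes and all lists were chosen with earlier results of these data known. Besides the 5 genes and znf711, the text names from each pathway list the gene of highest mean CPM, that of smallest p and any called, the cell markers, and the 3 genes most correlated with each tested gene. Other genes were named after their values were seen, including those at 0.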

Additional observations from a re-analysis of the deposited data

How the results depend on the processing

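No alternative called any of the 5 genes or any gene of the 9 pathway lists. arg1 and nos2a have no value under any setting, since they are at 0 throughout, and nos2b has none in the fits that keep the filter on low counts. The log2 fold change of arg2 turned to -0.10 with limma-voom and ran from -0.81 to 1.2 when single libraries were left out. That of odc1 ran from -0.57 to 0.59 and the difference of nos2b from 0.48 to 1.11 in the same runs. Without any filter edgeR fitted 5.65 for nos2b (adjusted p = 0.4537), a value that depends on the prior count. For odc1 the 2 other scalings gave 0.13 and 0.33, and scaling by library totals alone moved the median of all rows to -0.02. Among all rows, calls were 12 with DESeq2 (9 higher, 3 lower), 2 with edgeR and no filter, 0 to 2 with single libraries left out, and 140 with DESeq2 and no filter, which was added after seeing the data. The causes were not tested.

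With the replicate number as a block the log2 fold change was -0.54 for arg2 and 0.12 for odc1, and 0 rows were called. The replicate block rests on numbers alone: deviations of same-numbered libraries correlated at 0.17, 0.136 and 0.0376, and not every library correlated best with its own number.

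Single pathway genes turned in sign without ever passing. With limma-voom adh5 was at -0.92 and sms at 0.07. With library totals alone sms was at 0.03 and slc3a2b at 0.01. Without both libraries of lowest mpx level adh5 was at -0.05, ddah2 at 0.43 and slc3a2b at 0.26. Across left-out libraries adh5 ran from -0.57 to 1.36, aldh18a1 from -0.49 to 0.17, ddah2 from -0.77 to 0.24, slc3a2b from -0.82 to 0.43 and sms from -0.57 to 0.11. At these depths nos2b is near the limit that a count of 0 allows.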

Other observations

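Markers of other cell types than neutrophils, macrophages and erythroid cells had these levels. Ionocyte markers summed to 4.86 to 9.02 CPM in the morpholino libraries and 0 to 16.7 CPM in controls, and foxi3a, the row with the largest mean share of their reads, was at 5.87 ± 2.23 CPM in the morpholino group and 4.24 ± 6.13 CPM in controls (SD, n = 3 each). Epidermal markers summed to 3.53 to 113 CPM in the morpholino group and 8.94 to 91.3 CPM in controls, and cyt1, chosen likewise, was at 34.4 ± 30.6 CPM in the morpholino group and 29.6 ± 19.8 CPM in controls. Liver markers summed to 4.75 to 19.1 CPM in the morpholino group and 1.51 to 41.2 CPM in controls, and tfa was at 9.41 ± 5.14 CPM in the morpholino group and 8.11 ± 7.77 CPM in controls. Skeletal muscle markers summed to 75.5 to 100 CPM in the morpholino group and 47.8 to 89 CPM in controls, and tnnt3b was at 53.9 ± 18.2 CPM in the morpholino group and 52.5 ± 31.1 CPM in controls. The fast muscle myosin heavy chain gene myhz2 stood apart within that list, at 31.1, 14.5 and 27.1 CPM in the morpholino group and 1.63, 0.483 and 0.801 CPM in controls, and the groups did not overlap. Its log2 fold change was 4.61 ± 1.5, with an unadjusted p of 0.00682 and an adjusted p of 0.9999 in edgeR, 0.9994 in limma-voom and 0.01417 in DESeq2, which called it. It ran from 4.24 to 5.19 with single libraries left out. The muscle gene ckma had 6, 6 and 10 counts in the morpholino libraries and 2, 2 and 1 in controls, too few to be tested, and mylpfa was at 0 throughout. In contrast, acta1b was at 2.64, 10.8 and 7.34 CPM in the morpholino group and 29.4, 6.64 and 15.5 CPM in controls. Among the other marker lists, the erythroid globin gene hbbe3 alone had an unadjusted p below 0.05, at 753, 541 and 100 CPM in the morpholino group and 188, 93.6 and 122 CPM in controls (log2 fold change 1.79 ± 0.61, unadjusted p = 0.01, edgeR adjusted p = 0.9999). These muscle genes other than tnnt3b, and hbbe3, were named after their values were seen, and their part in the values of arg2 and odc1 was not tested. Neural markers summed to 181 to 615 CPM in the morpholino group and 103 to 553 CPM in controls, and elavl3 was at 191 ± 137 CPM in the morpholino group and 139 ± 121 CPM in controls. The neutrophil row with the largest mean share of reads, npsn, was at 3146 ± 1847 CPM in the morpholino group and 3159 ± 2161 CPM in controls. That of the macrophage list, named MFAP4, was at 928 ± 574 CPM in the morpholino group and 657 ± 575 CPM in controls. That of the erythroid list, hbae3, was at 7731 ± 6322 CPM in the morpholino group and 5559 ± 4154 CPM in controls.

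An unnamed gene model of 321 bases ending 946 bases upstream of odc1 had 43 counts in morpholino replicate 2 and 0 in the other 5 libraries, so it did not follow the level of odc1.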
